A study of Mus musculus with 8 samples.

Results

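The complement genes that macrophages make, and the receptors through which they sense complement fragments, were examined in macrophages from the malignant ascites of tumor-bearing mice. The members were 9 genes chosen by symbol, namely the C1q chains C1qa, C1qb and C1qc, the components C3, C4b, Cfb and Cfp, and the receptors C3ar1 and C5ar1, with integrin receptors left out. All 9 had a row among the 23469 genes of the table, and all 9 were among the 8801 genes tested because their mean reached 1 TPM (a transcript level scaled for gene length and library size) over the 8 libraries.

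Bulk RNA-seq by the Smart-seq2 method was performed on 4 libraries of embryonic-derived macrophages (AeEM) and 4 libraries of monocyte-derived macrophages (AeMM). Both populations came from the ascites of C57BL/6 female mice carrying the monocyte fate-mapping alleles Ms4a3Cre-RosaTdT (genotype Ms4a3TdT in the labels), which had been injected in the peritoneum with ID8 mouse ovarian tumor cells and received no further treatment. AeEM were the tdTomato-negative and AeMM the tdTomato-positive cells of the same macrophage gate, which kept cells positive for CD45, CD11b and F4/80 and left out those positive for Ly6G, SiglecF or Ly6C. Cre is driven by Ms4a3, a gene of granulocyte-monocyte progenitors, so the origin of a cell was read from this label alone. A macrophage whose progenitor escaped labelling would be sorted as AeEM, and no library from a mouse without tumor was part of the comparison.

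Complement is a cascade of plasma proteins that marks microbes, immune complexes and dying cells. C1q binds a target and starts the classical pathway through C4 and C2, factor B and properdin form and hold the convertase of the alternative pathway, and both pathways cleave C3, the central component. Most plasma complement is made by the liver, whereas C1q and properdin come largely from myeloid cells, and tissue macrophages in mice are known for abundant C1q. C3a and C5a, the small fragments released by cleavage, act on leukocytes through the receptors C3aR and C5aR1.

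The C1q chains lie side by side on mouse chromosome 4. In the mm10 build with GENCODE M21 gene models, C1qb (ENSMUSG00000036905.8, B chain) spans chr4:136880129-136886187, C1qc (ENSMUSG00000036896.5, C chain) spans chr4:136889804-136893065 and C1qa (ENSMUSG00000036887.5, A chain) spans chr4:136895917-136898803, all on the minus strand. C1qb and C1qc are 3616 bases apart and C1qc and C1qa 2851 bases apart, within a stretch of 18675 bases. C3 (ENSMUSG00000024164.15) spans chr17:57203970-57228136, and C4b (ENSMUSG00000073418.4, chr17:34728380-34743882) and Cfb (ENSMUSG00000090231.10, chr17:34856374-34862518) lie 112491 bases apart in the same chromosome's major histocompatibility region. Cfp (ENSMUSG00000001128.7) spans chrX:20925454-20931555, C3ar1 (ENSMUSG00000040552.8) chr6:122847138-122856161 and C5ar1 (ENSMUSG00000049130.6) chr7:16246743-16259540, and all of these are on the minus strand as well.

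The upstream sequences of C1qb, C1qc and C3 are shown because the first pair were the most abundant members and differed little between the groups, whereas C3 gave the lowest level and the greatest difference in size among the members. They were taken from RefSeq on GRCm38.p6, which had a promoter for 6 of the 9 members (C1qb, C1qc, C3, C3ar1, C5ar1 and Cfp), and are written 5′ to 3′ on the minus strand, up to the RefSeq start or, for C1qc, up to the first base of the longer GENCODE transcript. Capitals mark matches on either strand to GAGGAA (a core bound by PU.1), TGCTGA (a core bound by Maf proteins) or TTGCNNAA (a C/EBP core).
C1qb, chr4:136886201-136886450: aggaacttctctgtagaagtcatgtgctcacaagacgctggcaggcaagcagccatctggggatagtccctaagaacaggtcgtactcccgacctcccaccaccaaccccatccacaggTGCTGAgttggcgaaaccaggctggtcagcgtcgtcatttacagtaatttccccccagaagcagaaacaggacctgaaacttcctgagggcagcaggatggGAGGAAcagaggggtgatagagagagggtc
C1qc, chr4:136893066-136893164: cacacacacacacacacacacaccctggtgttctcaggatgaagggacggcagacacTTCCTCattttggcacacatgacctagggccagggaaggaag
C3, chr17:57228137-57228386: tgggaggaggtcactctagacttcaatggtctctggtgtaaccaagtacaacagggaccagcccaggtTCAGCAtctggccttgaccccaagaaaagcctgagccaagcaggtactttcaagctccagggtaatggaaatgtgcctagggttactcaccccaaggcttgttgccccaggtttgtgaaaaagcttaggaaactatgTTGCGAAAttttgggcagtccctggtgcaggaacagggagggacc
Over the whole window of 250 bases before and 50 bases after the RefSeq start, GAGGAA was found in 3 of the 6 member promoters (C1qb, C1qc and Cfp), against 28.3% of all 32851 promoters. TGCTGA was found in 4 of the 6 (C1qb, C3, C3ar1 and C5ar1), against 19.5% of all promoters, and TTGCNNAA in C3 alone, against 10.8%. The C/EBP match of C3 began 45 bases before its start. The core of the interferon-stimulated response element was in none of the 6, against 3.44% of all promoters. None of these motifs overlapped another in the sequences shown, and a match describes letters, not binding.

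The 8 libraries had between 8498 and 8753 genes at 1 TPM or more, and no counts were used, so the depth behind each value is unknown. The values fell into 3 library sets, namely replicate 1, replicate 2, and replicates 3 with 4. A gene's mean is almost equal in each set, from which an adjustment before deposition was inferred. In replicates 1 and 2 the AeEM and AeMM values of a gene therefore mirror each other around that mean, and tests that ignore the sets rest on libraries that are not fully independent. Macrophage markers (7 of 7 genes, Lyz2 the most abundant) summed to 69176 to 77261 TPM in AeEM and 70280 to 85383 TPM in AeMM. Of the large peritoneal macrophage markers, Gata6 stayed below 1 TPM in every library, while Cd5l, Icam2 and Timd4 were detected. The list summed to 241 to 300 TPM in AeEM and 258 to 324 TPM in AeMM, nearly all of it Cd5l. Cd5l averaged 255 TPM in AeEM and 276 TPM in AeMM, and Icam2 9.32 TPM in AeEM and 8.26 TPM in AeMM. Timd4 averaged 7.79 TPM in AeEM and 3.94 TPM in AeMM. None of these 3 genes passed the limma test.

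Which complement genes differ between macrophages of embryonic and of monocyte origin was asked first at the level of single genes. None of the 9 passed the limma test (Benjamini-Hochberg adjusted p under 0.05 over 8801 genes), where 2.41% of all genes did, 1.25% higher and 1.16% lower in AeEM. C1qa and Cfp averaged more in AeEM and C3 less, by 0.40, 0.32 and −0.74 on the log2(TPM + 1) scale, and these 3 had an unadjusted limma p under 0.05, compared with 18% of all genes tested. C1qa and C3 were the 2 members whose groups did not overlap, 1 in each direction, whereas 12.2% of all genes did not overlap (5.72% higher and 6.53% lower). The other 6 members differed by less than 0.1 in size, and the median size of the difference was 0.08 over the 9 members and 0.16 over all genes tested. The median signed difference was 0.0044 for the members and −0.0064 for all genes tested, with 5 members positive and 4 negative.

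**Figure D1:**
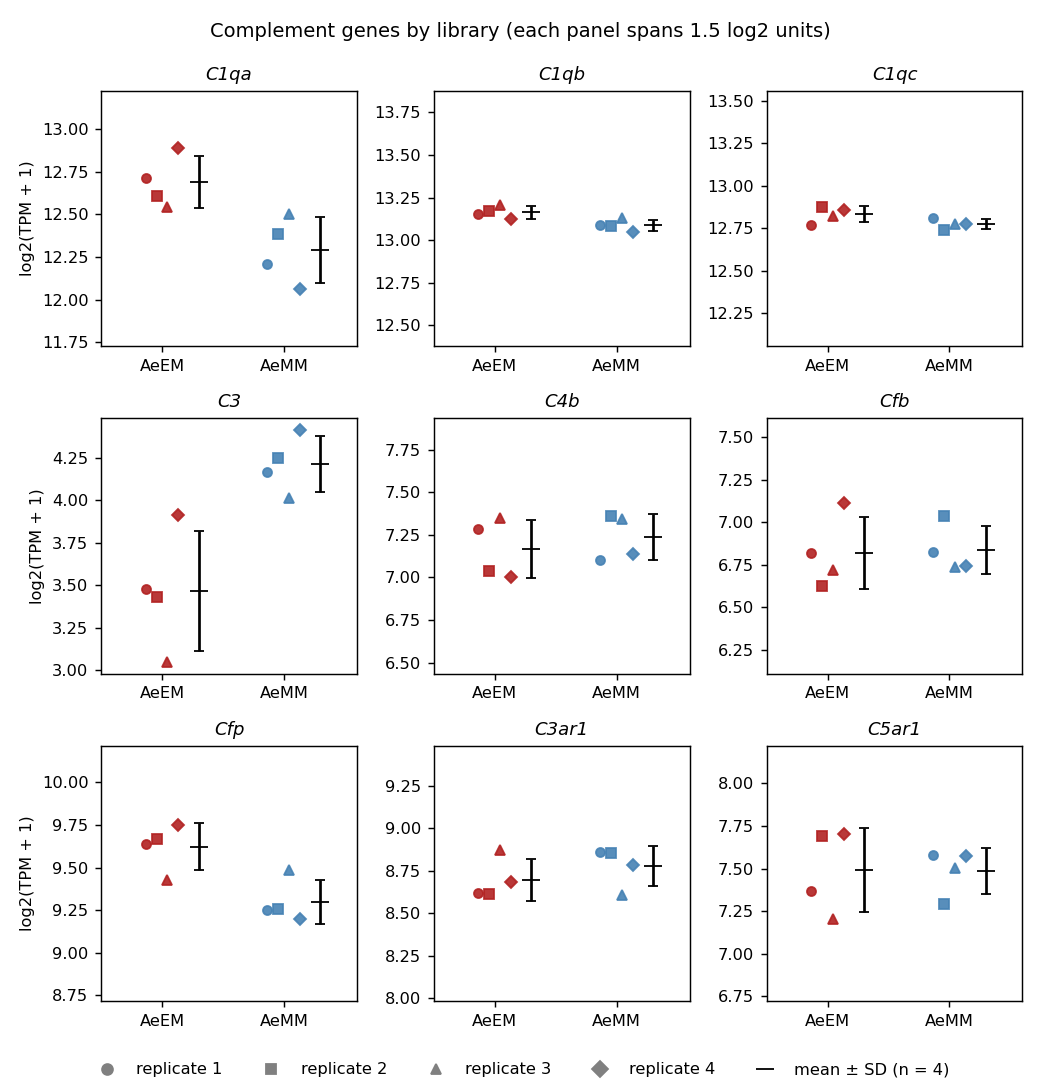
Deposited log2(TPM + 1) values of the 9 complement genes in each library, with AeEM in red on the left and AeMM in blue on the right of each panel, marker shapes for the replicate numbers and bars for the mean ± SD (n = 4 each); each panel spans the same height. The groups separate completely for C1qa and C3, nearly so for Cfp and C1qb, and overlap further for the other genes.

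When limma was fitted with a term for the library sets, none of the 9 passed (0.159% of all genes did), nor did any pass with the replicate number as a term (0.0568% of all genes did). In the sets fit the same 3 members, C1qa, C3 and Cfp, had an unadjusted p under 0.05, against 9.64% of all genes. The sizes of the differences do not depend on that term, but their intervals widen. In the within-set values, C1qa was higher in AeEM by 0.50 for replicate 1, 0.22 for replicate 2 and 0.44 for the set of replicates 3 and 4. C3 was lower in AeEM in each set, and Cfp and C1qb higher in each.

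**Figure D2:**
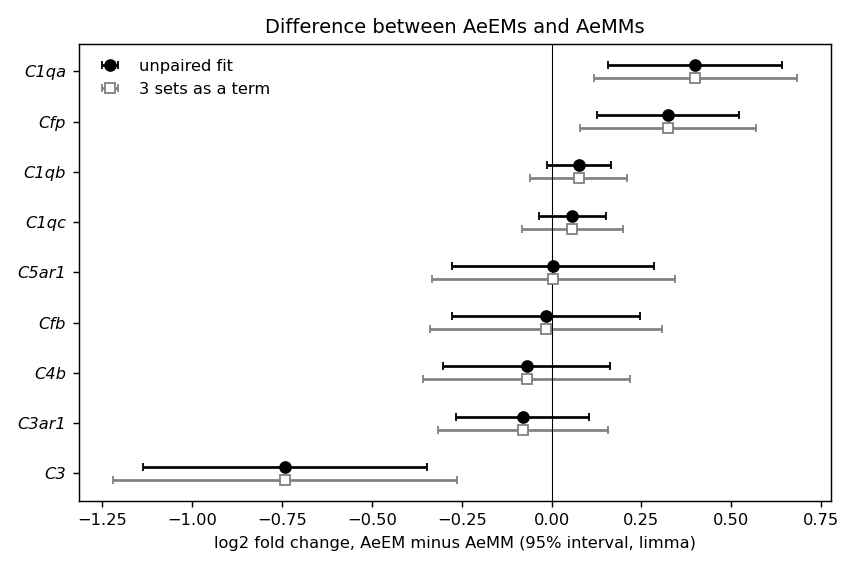
Log2 fold change of each complement gene, AeEM minus AeMM, with its 95% interval from limma, unpaired (black circles) and with the library sets modelled (open squares), ordered from the most positive at the top to the most negative at the bottom. The intervals of C1qa and Cfp lie above 0 and that of C3 below 0 in both fits; the other 6 span 0.

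**Figure D3:**
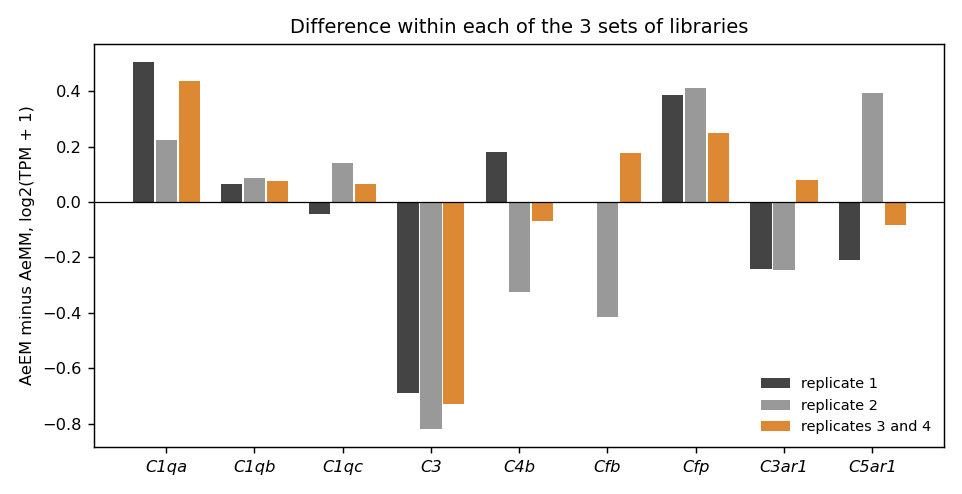
Difference AeEM minus AeMM in log2(TPM + 1) within each library set (dark grey for replicate 1, light grey for replicate 2, orange for replicates 3 and 4; bars from 0, no error bars, because the first 2 sets hold 1 library per group). C1qa, C1qb and Cfp were positive and C3 negative in all 3 sets, while C1qc, C4b, Cfb, C3ar1 and C5ar1 took both signs.

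C1q, the recognition molecule of the classical pathway, is built from A, B and C chains in equal number, and its 3 genes were among the most abundant transcripts of both populations. C1qb ranked 15 among the 8801 genes tested in both groups, C1qc ranked 17 in both, and C1qa ranked 19 in AeEM and 23 in AeMM. C1qa had 6722, 6236, 5970 and 7605 TPM in AeEM replicates 1 to 4, against 4738, 5343, 5800 and 4274 TPM in AeMM. Every AeEM library was above every AeMM library, but the closest pair, both of replicate 3, were 5970 and 5800 TPM. The log2 difference was 0.40 with a standard error of 0.11 (95% interval 0.16 to 0.64, limma adjusted p = 0.092, or 0.36 with sets modelled). The two-sided exact permutation test over 70 regroupings gave p = 0.0286, the smallest it can give, and within the 3 sets p = 0.0833, also the smallest possible. After quantile scaling, the difference of C1qa was 0.26, the groups overlapped and the exact p was 0.0857.

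C1qb had 9097, 9219, 9448 and 8909 TPM in AeEM, against 8701, 8675, 8956 and 8479 TPM in AeMM. The groups overlapped only through AeEM replicate 4 and AeMM replicate 3, and the spread within a group was narrow, so that the log2 means were 13.16 ± 0.04 in AeEM and 13.09 ± 0.03 in AeMM (SD, n = 4 each). The difference of 0.08 (interval −0.01 to 0.16) did not pass limma (adjusted p = 0.37), and the exact permutation p was 0.0571. C1qc had 6985, 7523, 7242 and 7434 TPM in AeEM, against 7190, 6826, 7016 and 6998 TPM in AeMM. Its groups overlapped, since AeEM replicate 1 was below AeMM replicates 1 and 3 and just below AeMM replicate 4, and the difference of 0.06 (interval −0.04 to 0.15) did not pass either (limma adjusted p = 0.52, exact permutation p = 0.114). With sets modelled, the intervals were −0.06 to 0.21 for C1qb and −0.08 to 0.20 for C1qc.

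The chains were then compared within each library, which removes what a library has in common. C1qa minus the mean of C1qb and C1qc, in log2 units, was −0.25, −0.42, −0.47 and −0.10 in AeEM, against −0.74, −0.53, −0.45 and −0.85 in AeMM. The groups overlapped through replicate 3, whose 2 libraries had the same balance within 0.02. The difference of 0.33 did not pass the exact permutation test (two-sided p = 0.0571, and 0.167 within the sets), except when AeMM replicate 3 was left out (difference 0.40, exact p = 0.0286). In the sets it was 0.49 for replicate 1, 0.11 for replicate 2 and 0.37 for replicates 3 and 4. As a share of the summed TPM of the 3 chains, C1qa made up 28.7 ± 2.44% in AeEM and 24.2 ± 2.32% in AeMM, C1qb 39.7 ± 1.86% in AeEM and 42.0 ± 0.77% in AeMM, and C1qc 31.6 ± 0.94% in AeEM and 33.8 ± 1.56% in AeMM (SD, n = 4 each).

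**Figure D4:**
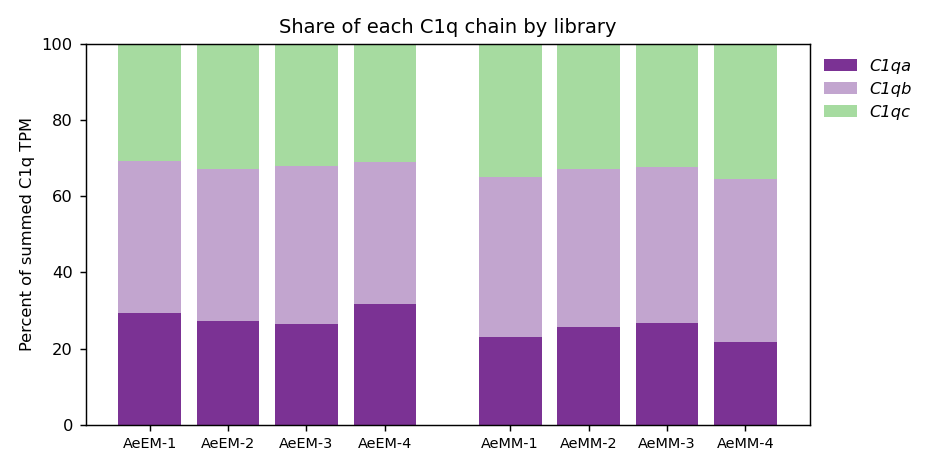
Percent of the summed C1q TPM that each chain contributed in every library, AeEM libraries on the left and AeMM libraries on the right, with C1qa at the bottom, C1qb in the middle and C1qc at the top of each bar. C1qa took between 26.3% and 31.8% in AeEM and between 21.6% and 26.6% in AeMM, so the lowest AeEM and the highest AeMM library overlap.

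Together the 3 chains took 2.38%, 2.39%, 2.33% and 2.48% of all TPM in AeEM libraries 1 to 4, against 2.15%, 2.15%, 2.27% and 2.03% in AeMM. The groups did not overlap, and the means were 2.39 ± 0.06% in AeEM and 2.15 ± 0.10% in AeMM (SD, n = 4 each). Most of this gap was that of C1qa, which averaged 6633 TPM in AeEM and 5039 TPM in AeMM. C1qb averaged 9168 TPM in AeEM and 8703 TPM in AeMM, and C1qc 7296 TPM in AeEM and 7007 TPM in AeMM, each with groups that overlapped. Erythroid transcripts (Hba-a1, Hbb-bs and Alas2, 3 of 3 genes) summed to 6953 to 11633 TPM in AeEM and 3736 to 9569 TPM in AeMM, groups that overlapped. When mitochondrially encoded and ribosomal protein genes were taken out of the total, the difference was 0.26 rather than 0.24 percentage points. In bulk libraries such as these, fewer cells of a kind and less RNA per cell cannot be told apart.

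C3, whose cleavage is the step on which all pathways meet, was the least abundant member by far. It had 10.1, 9.78, 7.30 and 14.1 TPM in AeEM, against 17.0, 18.0, 15.2 and 20.3 TPM in AeMM. All 4 AeEM libraries were below all 4 AeMM libraries, with AeEM replicate 4 and AeMM replicate 3 the nearest pair. The log2 difference was −0.74 with a standard error of 0.17 (interval −1.14 to −0.35, limma adjusted p = 0.065, or 0.31 with sets modelled). Within the sets the differences were −0.69, −0.82 and −0.73, all of like size. The exact permutation test gave p = 0.0286 over all regroupings and 0.0833 within the sets, the smallest values that either can give. C3 passed limma without AeEM replicate 4 (difference −0.89, adjusted p = 0.027) and when the filter was raised to 5 TPM (adjusted p = 0.042), and in no other of the 16 alternatives. C3 ranked 3147 among the genes tested in AeEM and 2181 in AeMM.

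The summed neutrophil list was lower in AeEM, as C3 was, although the sort had removed Ly6G-positive cells, the gate meant to leave neutrophils out. Of the 8 genes listed, 7 had a row, and their sum was 19.0 to 22.7 TPM in AeEM and 32.0 to 46.7 TPM in AeMM. The sum came from S100a8 and Csf3r, while S100a9, Cxcr2, Retnlg, Camp and Ngp averaged below 1 TPM in both groups. At these low levels Cxcr2 and Retnlg averaged more in AeEM, and S100a9, Camp and Ngp more in AeMM. T cell markers summed to 0.95 to 3.83 TPM in AeEM and 4.08 to 12.2 TPM in AeMM, groups that did not overlap either. All 4 genes of that list averaged more in AeMM, and Trbc2 was the largest part (1.41 TPM in AeEM, 4.42 TPM in AeMM). Cd3e was below 1 TPM in every library. The mesothelial and epithelial markers (7 of 7 genes) were at 3.51 to 6.39 TPM in AeEM and 4.53 to 6.34 TPM in AeMM, with Msln, Wt1, Upk3b, Lrrn4 and Krt8 averaging below 1 TPM, and Col1a1, Col1a2, Col3a1 and Pdgfra of the fibroblast list averaged below 1 TPM. Of the monocyte markers (5 of 5 genes, 166 to 258 TPM in AeEM and 157 to 200 TPM in AeMM), Ly6c2 and Chil3 fell in AeEM in limma, in cells sorted as Ly6C-negative. B cell markers (5 of 5 genes) summed to 106 to 171 TPM in AeEM and 140 to 171 TPM in AeMM, groups that overlapped. The part of any of these cells in the C3 values was not tested.

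Cfp encodes properdin, which holds the alternative convertase together and is the only positive regulator of complement among the members. It had 795, 813, 688 and 861 TPM in AeEM, against 608, 610, 715 and 587 TPM in AeMM. The 3rd replicates were the exception to an otherwise complete separation, with AeEM replicate 3 below AeMM replicate 3. The log2 difference was 0.32 with a standard error of 0.09 (interval 0.13 to 0.52, limma adjusted p = 0.092, or 0.40 with sets modelled), and the exact permutation p was 0.0571, or 0.167 within the sets. Cfp passed limma without AeEM replicate 3 (difference 0.39, adjusted p = 0.046) and in no other alternative.

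Cfb, factor B, carries the protease of the alternative convertase. It had 112, 97.6, 105 and 138 TPM in AeEM, against 112, 130, 106 and 106 TPM in AeMM, so that the highest and the lowest library were both AeEM. The difference was −0.01 (interval −0.28 to 0.25, limma adjusted p = 0.97, exact permutation p = 0.829) and turned positive without AeEM replicate 2, AeEM replicate 3 or AeMM replicate 2 (0.05, 0.02 and 0.05). Of the 100-base windows of the Cfb transcript, 81.03% are shared with the readthrough gene Gm20547, which has no row in the table, so the level of Cfb depends on how such reads were assigned. C4b, the complement C4 that is cleaved by the C1 complex, had 155, 130, 162 and 127 TPM in AeEM, against 136, 164, 162 and 140 TPM in AeMM. Its libraries interleaved, with a difference of −0.07 (interval −0.30 to 0.16, limma adjusted p = 0.79, exact permutation p = 0.543). C4b shares 16.5% of its 100-base windows with C4a, 65209 bases away, which averaged 0.31 TPM.

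The receptors of the C3a and C5a fragments gave no separation. C3ar1 had 392, 390, 468 and 410 TPM in AeEM, against 463, 462, 390 and 440 TPM in AeMM. Replicates 1, 2 and 4 were lower in AeEM and replicate 3 was higher, and the difference was −0.08 (interval −0.27 to 0.10, limma adjusted p = 0.67, exact permutation p = 0.486). C5ar1 had 164, 205, 146 and 208 TPM in AeEM, against 190, 156, 180 and 190 TPM in AeMM. Its AeEM libraries formed a low pair (replicates 1 and 3) and a high pair (replicates 2 and 4) on either side of the AeMM libraries 1, 3 and 4. The difference of C5ar1 was 0.0044 (interval −0.28 to 0.29, limma adjusted p = 0.99, exact permutation p = 1), and it turned negative without AeEM replicate 2, AeEM replicate 4 or AeMM replicate 2 (−0.06, −0.07 and −0.06). The log2 ratio of C3ar1 to C5ar1 was 1.20 ± 0.34 in AeEM and 1.29 ± 0.19 in AeMM (SD, n = 4 each), a difference of −0.09 that did not pass (exact permutation p = 0.629) and was near 0 without AeEM replicate 2 (0.0091), AeEM replicate 4 (−0.0093) or AeMM replicate 2 (0.0056).

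On the TPM scale the order of the 9 levels was the same in both populations. C1qb was first with 9168 TPM in AeEM and 8703 TPM in AeMM, followed by C1qc with 7296 TPM in AeEM and 7007 TPM in AeMM and C1qa with 6633 TPM in AeEM and 5039 TPM in AeMM. Cfp averaged 789 TPM in AeEM and 630 TPM in AeMM, C3ar1 415 TPM in AeEM and 439 TPM in AeMM, and C5ar1 181 TPM in AeEM and 179 TPM in AeMM. The lowest were C4b with 144 TPM in AeEM and 150 TPM in AeMM, Cfb with 113 TPM in AeEM and 114 TPM in AeMM, and C3 with 10.3 TPM in AeEM and 17.6 TPM in AeMM. C1qc and C1qa overlapped in AeEM but not in AeMM, C5ar1 and C4b overlapped in both, and C4b and Cfb overlapped in AeEM. No other neighbours in the order overlapped within a group. The recognition chain C1qb thus exceeded C3 by 888-fold in AeEM and 494-fold in AeMM as a ratio of mean TPM.

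The rest of the pathway was read from lists of 53 other complement genes, of which 51 had a row and 19 were tested. In the limma test 1 was higher in AeEM (Itgax), 1 was lower (Lair1) and 17 did not pass, against 1.25% of all genes called higher and 1.16% lower. None of the 19 passed once the sets were modelled, and 4 of the 19 had an unadjusted limma p under 0.05 in the unpaired fit, against 18% of all genes tested. Their median difference was 0.01.

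Partners of C1q and C4 in the classical pathway were low or below the filter. Of the 6 initiation genes only C1ra, a protease of the C1 complex, was tested, at 6.61 TPM in AeEM and 7.36 TPM in AeMM, while C1s1 averaged 0.77 TPM over the libraries, C4a 0.31 TPM and C2 0.15 TPM. Of 8 lectin pathway genes in the table, only Fcna (ficolin A, a soluble pattern receptor) was tested. It averaged 11.43 ± 0.12 in AeEM and 11.49 ± 0.15 in AeMM in log2 units (SD, n = 4 each), about 2830 TPM over all libraries, and did not pass (limma adjusted p = 0.77). Of the 7 genes of the terminal pathway, C8g alone reached the filter, at 1.04 TPM, and C6 averaged 0.61 TPM.

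Regulators were also few. Of the soluble regulators, Clu (clusterin, which restrains the terminal pathway) averaged 2.64 TPM in AeEM and 3.85 TPM in AeMM. Of the 7 membrane regulators, Cr1l (Crry, the main membrane inhibitor of C3 convertases in rodents) averaged 16.8 TPM in AeEM and 16.6 TPM in AeMM, and Cd59a and Cd55 were at 1.95 and 1.32 TPM over all libraries. None of these 4 genes passed, and the limma adjusted p of Cr1l was 0.96.

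**Figure D5:**
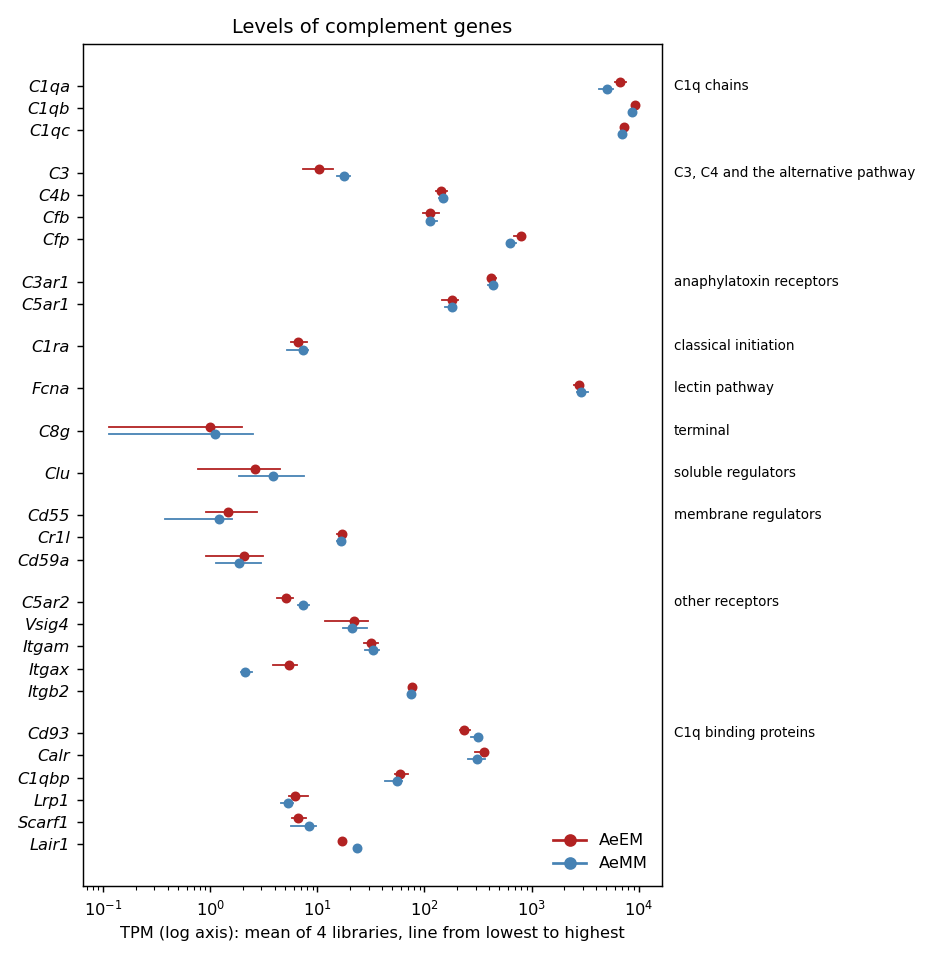
Mean TPM of the 9 members and of 18 other complement genes tested, by role, on a log axis, AeEM in red above AeMM in blue, with lines from the lowest to the highest of the 4 libraries. The C1q chains and Fcna lie above all other genes shown in both groups; the initiating proteases, terminal components and membrane regulators lie near or below 20 TPM.

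Receptors outside the 9 members held the gene of this pathway that passed in the upward direction. Itgax, the alpha chain of the iC3b receptor CR4 (CD11c), had log2 values of 2.81, 2.70, 2.27 and 2.90 in AeEM, against 1.56, 1.59, 1.79 and 1.56 in AeMM. The groups were well apart, and the difference was 1.05 with a standard error of 0.15 (limma adjusted p = 0.011), or 0.55 on the scale log2(TPM + 5). Its adjusted p was 0.11 once the sets were modelled. Itgax is also a dendritic cell gene, and the dendritic list (5 of 5 genes) summed to 37.1 to 98.7 TPM in AeEM and 4.29 to 9.24 TPM in AeMM. Cd209a carried nearly all of that sum, and Flt3, Zbtb46, Clec9a and Xcr1 averaged below 1 TPM in both groups; the part of dendritic cells in the Itgax value was not tested. The other chains of the complement receptor integrins, Itgb2 at 75.9 TPM in AeEM and 75.2 TPM in AeMM and Itgam at 31.9 TPM in AeEM and 32.9 TPM in AeMM, did not pass (limma adjusted p = 0.94 and 0.92). Vsig4, the macrophage receptor for C3b and iC3b, averaged 21.9 TPM in AeEM and 20.9 TPM in AeMM (adjusted p = 0.98 in limma).

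C5ar2, the second C5a receptor and the neighbour of C5ar1 at a distance of 2588 bases, is described because it sits beside a member, and was picked after its values were seen. Its log2 values were 2.63, 2.59, 2.80 and 2.38 in AeEM, against 3.04, 3.08, 3.23 and 2.92 in AeMM. All AeEM libraries were below all AeMM libraries, the difference was −0.47, and it did not pass (limma adjusted p = 0.082, or 0.42 with sets modelled).

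Among 7 proteins that bind C1q, Lair1, an inhibitory receptor whose ligands include collagens and C1q, fell in AeEM in the limma test. Its log2 values were 4.23, 4.15, 4.19 and 4.09 in AeEM, against 4.54, 4.61, 4.67 and 4.58 in AeMM, 2 tight groups that did not overlap. The difference was −0.43 with a standard error of 0.07 (limma adjusted p = 0.022, or 0.27 with sets modelled), and the call was lost without AeEM replicate 1 (0.071), AeEM replicate 2 (0.088), AeMM replicate 1 (0.072) or AeMM replicate 2 (0.090). Cd93, a membrane protein long studied as a C1q receptor, had log2 values of 8.05, 7.88, 7.86 and 7.75 in AeEM, against 8.10, 8.29, 8.37 and 8.42 in AeMM. It lay just outside the threshold (difference −0.41, limma adjusted p = 0.052, or 0.29 with sets modelled). Cd93 passed without AeMM replicate 1 (difference −0.48, limma adjusted p = 0.049) and among genes of at least 5 TPM (0.034), and in no other alternative. Within the sets its difference was −0.05 for replicate 1, −0.41 for replicate 2 and −0.59 for replicates 3 and 4. Calr, the chaperone calreticulin that also binds C1q at the cell surface, averaged 358 TPM in AeEM and 307 TPM in AeMM, and C1qbp 59.0 TPM in AeEM and 55.4 TPM in AeMM, and neither passed (limma adjusted p = 0.39 and 0.78).

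Of 7 transcription factors known for complement genes, 1 passed and 5 had an unadjusted limma p under 0.05, against 2.41% and 18% of all genes tested. Maf, a factor of tissue macrophages in mice, had log2 values of 6.50, 6.46, 6.71 and 6.65 in AeEM, against 7.11, 7.15, 7.09 and 6.80 in AeMM. The groups did not overlap and the difference was −0.46 with a standard error of 0.10 (limma adjusted p = 0.047, or 0.27 with sets modelled). The call of Maf was lost under 10 of 16 alternatives, among them leaving out AeEM replicate 1, 2 or 4 (adjusted p = 0.14, 0.14 and 0.077) or AeMM replicate 1, 2 or 3 (0.14, 0.14 and 0.090). Cebpb, a C/EBP factor of the acute-phase response, averaged 7.59 ± 0.20 in AeEM and 8.06 ± 0.17 in AeMM (SD, n = 4 each), a difference of −0.47 that did not pass (limma adjusted p = 0.076). The values of these factors stand beside those of their known targets as measurements, and a link between them was not tested.

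How the members varied with one another was described by Pearson's r over the 8 libraries, which share the adjustment of the 3 sets and hold both groups, so no p is given. Of the 36 pairs, the highest r was 0.94 for C1qa and Cfp and the lowest −0.98 for C1qb and C3. After each group's own mean was subtracted these were 0.82 and −0.94. C4b and C5ar1 had r = −0.89, and Cfp and C3ar1 r = −0.75. C1qa and C1qb, neighbours on the chromosome, had r = 0.64, which was 0.04 after the group means were subtracted.

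Among 3100 other genes that averaged 10 TPM or more, those most like each member over the 8 libraries were Pld4 for C1qa (r = 0.99), Tmem222 and Nsmce1 for C1qb (0.99 each), and Coro1b and Calm2 for C1qc (0.92 and 0.89). For C3 they were Trim41 (0.99) and Ccl24 (0.98), a chemokine that attracts eosinophils. Mcub (0.99) and Tubb6 (0.98) were most like Cfp, Hnrnpu and Hp1bp3 (0.99 each) most like C4b, and Vat1 (0.98) and Kif5b (0.97) most like Cfb. For the receptors they were Ddx3x for C3ar1 (0.99) and H2-K1 (0.95) and Eif2s1 (0.93) for C5ar1. None of these 16 genes passed the limma test, and each r is the highest or next highest among 3100 candidates over only 8 libraries.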

How the data were processed

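The authors prepared Smart-seq2 libraries (not strand-marking), trimmed reads with fastp, mapped them to mm10 with STAR 2.7.2a and counted genes with Subread featureCounts. The deposited table holds log2(TPM + 1) values. An adjustment between 3 sets of libraries was inferred from their nearly equal gene means. The TPM conversion, log, adjustment and annotation are not given in the sources used here. The design had assumed plain TPM, and the deposited log2 values were used as they stand, back-transformed to TPM (negative results set to 0) for levels and filters. Read depth is unknown, and precision is set by 4 libraries per group.

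The difference AeEM minus AeMM was fitted for 8801 genes averaging 1 TPM or more with limma 3.58.1 in R 4.3.3, without pairing and with its trend option, and genes with a Benjamini-Hochberg adjusted p under 0.05 were called. Single values were compared by two-sided exact permutation tests, over all 70 regroupings and over the 24 within the 3 sets. The limma step was tested on simulated data. Alternatives were pseudocounts of 0.1 and 5, no filter or one at 5 TPM, quantile scaling, no trend, the 3 sets or the replicate number as a term, and each library left out. Equal replicate numbers were not stated to share a mouse, although the paper names ascites of 4 mice as the source of these profiles. The deviations of equally numbered libraries from their group means correlated at −0.99, −1.00, −0.20 and −0.13. The adjustment by itself forces the values of replicates 1 and 2 and bears on the others. These correlations therefore cannot show whether a mouse was shared. The main fit was left unpaired, with the replicate number as a term in an alternative.

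The members and the gene lists were chosen with earlier results of these data known. Genes named were the members, other listed complement genes past the threshold or among the 3 most abundant of their list, and the 2 genes most like each member (Gm and Rik symbols left out); C2, C5ar2 and marker genes are named outside that rule. Mbl1, Cfd, Ly6g, Lum, Prg2 and Epx had no row and were not analysed here, and a few other genes that the rule would name are not reported here.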

Additional observations from a re-analysis of the deposited data

How the results depend on the processing

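Over all genes the limma calls were 212. They were 136 without the mean-variance trend, 14 with a term for the 3 sets, and 73 to 203 with 1 library left out. The replicate block used the replicate number as a term, although the numbers are not stated to pair the libraries. With it, 5 genes were called, and none of the 9 complement genes. The limma adjusted p was then 0.14 for C3, 0.36 for C1qa and 0.38 for Cfp. Itgax, Lair1 and Maf lost their calls with the block (0.15, 0.28 and 0.27). Calls among the 9 were 0, or 1 (C3) among genes of at least 5 TPM, and 0 to 1 with a library left out. The exact p of C1qa was 0.0833 within the 3 sets, 0.0857 after quantile scaling and 0.0286 to 0.0571 with a library left out; that of C3 was 0.0833 within the 3 sets and 0.0286 to 0.0571 with a library left out. The relative level of C1qa had an exact p of 0.0286 to 0.143, and that of C3ar1 to C5ar1, which turned without AeEM or AeMM replicate 2, 0.171 to 1, with a library left out. The difference of Cfb was 0.031 after quantile scaling (exact p = 0.829) and −0.11 to 0.053 with a library left out (exact p = 0.314 to 0.971), and that of C5ar1 −0.067 to 0.10 (exact p = 0.486 to 0.943). Quantile scaling left 1 member, C3, with groups that did not overlap. For these the cause was not tested beyond what the settings show by their own construction. C1qa, C1qb, C1qc, C3, C4b, Cfp and C3ar1 kept their sign under all 16 alternatives.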
